A study of Penicillium oxalicum with 15 samples.

Results

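In the filamentous fungus Penicillium oxalicum, 85 genes of the 9976 in the deposited table were higher on cellulose than on glucose in the reference strain M12 and higher again, on cellulose, when creA was deleted. They were also chosen to lie near M12, or below it, in a strain that overexpresses a mutant of the activator ClrB. The genes were chosen by 4 differences between group means of log2(FPKM + 1), where FPKM counts the fragments of a gene per kilobase of its length and is scaled to the fragments of the library. M12 had to be higher by at least 1 on cellulose than on glucose, and the creA deletion higher by at least 1 than M12 on cellulose. The strain gClrBID had to lie within 1 of M12 on glucose, and above M12 by less than 1 on cellulose. A difference of 1 on this scale is 2-fold for a well expressed gene and more than 2-fold for a gene near 0.

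Filamentous fungi that live on plant matter secrete enzymes that degrade cellulose, and they make few of them while glucose is at hand. CreA is a zinc finger repressor of carbon catabolite repression, the process by which a preferred sugar keeps genes for other carbon sources low. ClrB is a zinc cluster transcription factor that activates cellulase genes in Penicillium and Aspergillus. By the choice of them, the genes described here were above M12 by at least 1 without the repressor, and by less than 1 in the strain with the altered activator.

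The study used 3 strains and 5 groups of 3 libraries. The creA deletion mutant was measured on cellulose, gClrBID, which overexpresses an internal mutant of ClrB, on cellulose and on glucose, and the reference strain M12, which the series text names as the control, on cellulose and on glucose. All mycelia were grown for 22 h in Vogel's medium with 2% glucose, then moved for 4 h to the same medium with 2% (w/v) of either carbon source, at 30 °C and 200 rpm. The sources used here give no promoter for the ClrB construct, no further alleles that the strains may share and no number of clones, and the creA deletion on glucose was not analysed here. The series text speaks of biological triplicates without describing the cultures, so the p-values below rest on a spread that may be technical.

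The libraries held 10129672 to 18361206 fragments. The tag PDE_03168, which is creA by prior knowledge of the species and not by the deposited table, had 0 to 2 fragments per creA deletion library and 6951 to 9431 per M12 library on cellulose. PDE_05999, taken as clrB in the same way, averaged 73.7 ± 16.5 FPKM in gClrBID and 153 ± 6.43 in M12 on cellulose (SD, n = 3 each), so gClrBID did not hold more clrB transcript there. On glucose it averaged 469 ± 16.4 FPKM in gClrBID and 10.1 ± 0.345 in M12 (SD, n = 3 each). In RNA from whole mycelia, a change in all cells and a change in a part of them cannot be told apart.

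The steps of the choice show how narrow the set is. Of 8765 genes that reached 1 FPKM in at least 3 libraries, 1929 were higher by at least 1 on cellulose in M12. Of these, 217 (11.2%) were also higher by at least 1 in the creA deletion, 138 of the 217 stayed within 1 of M12 in gClrBID on glucose, and 104 of the 138 lay under the limit for gClrBID on cellulose. A further 19 were set aside, as the rule leaves out 2 stretches of tags and 2 single tags, which left 85. All 85 also reached 1 FPKM in at least 3 libraries when the creA deletion libraries were not counted. Singly, the 4 criteria were met by 22.0% of the tested genes for the M12 rise on cellulose, 5.43% for the creA deletion, 79.8% for gClrBID on glucose and 95.8% for gClrBID on cellulose.

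None of the 85 tags carries a gene name here. The deposited table holds tags alone, and a RefSeq table of strain HP7-1 matched 0 of the 9976. The genes are therefore given by their tags and no function is assigned to any of them.

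**Figure D1:**
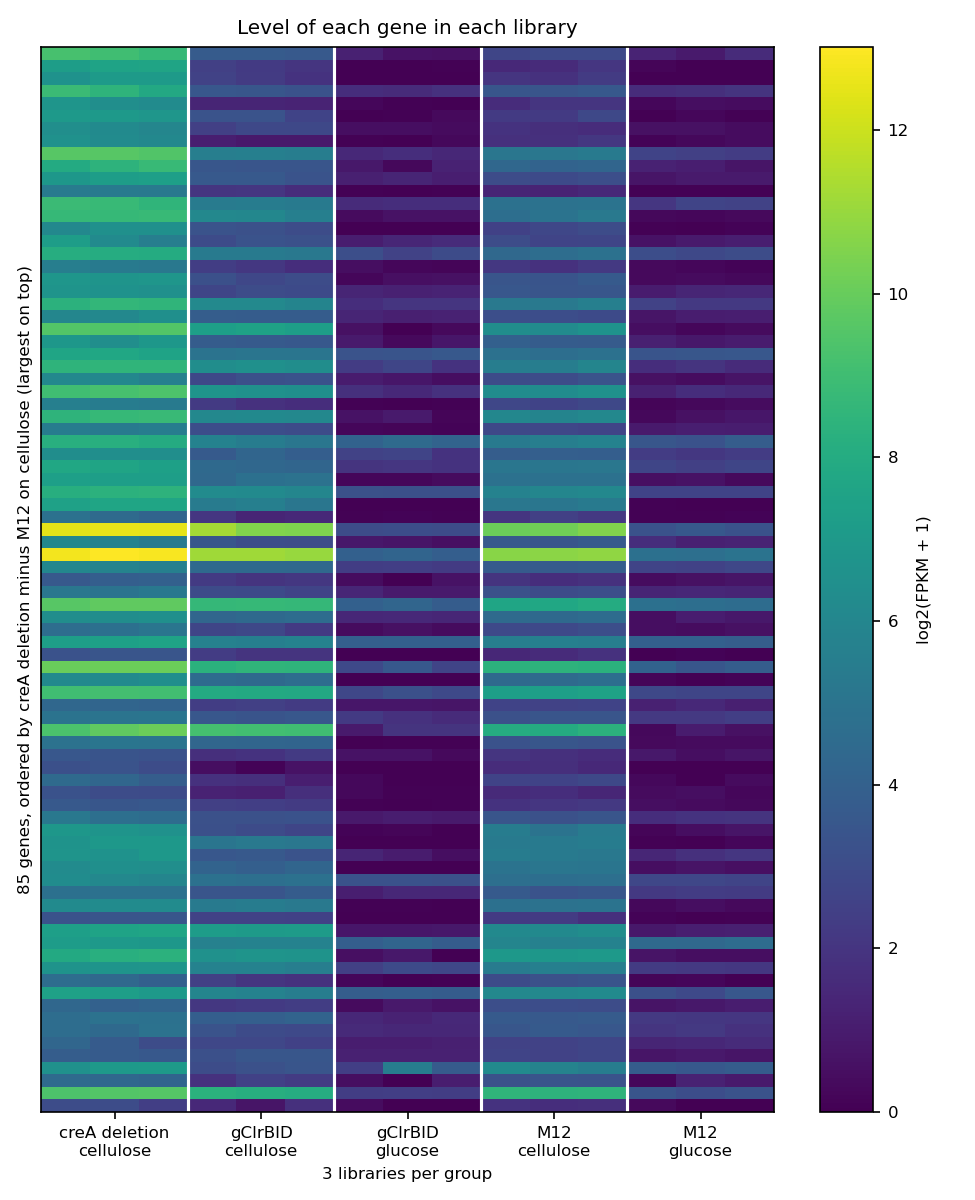
Level of the 85 genes (rows) in the 15 libraries (columns, 3 per group) as log2(FPKM + 1), ordered by the difference between the creA deletion and M12 on cellulose, largest on top. The creA deletion columns are the brightest in every row and both glucose groups the darkest in nearly all.

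As a group the 85 genes made up a small part of the RNA on glucose and a larger one on cellulose. They held 2.98 ± 0.0962% of the fragments in the creA deletion, 0.787 ± 0.0830% in gClrBID and 0.622 ± 0.0485% in M12 on cellulose (SD, n = 3 each). On glucose they held 0.0296 ± 0.00249% in gClrBID and 0.0330 ± 0.000706% in M12 (SD, n = 3 each). The middle gene of the set averaged 90.8 FPKM in the creA deletion, 10.6 in gClrBID and 10.97 in M12 on cellulose, and 0.757 in gClrBID and 0.870 in M12 on glucose. On cellulose 0 of the 85 averaged under 1 FPKM in the creA deletion, 2 in gClrBID and 0 in M12, and on glucose 47 did in gClrBID and 45 in M12. At least 100 FPKM on cellulose was reached by 41 in the creA deletion, 10 in gClrBID and 8 in M12. These levels describe the choice of the genes and were not tested.

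The groups did not overlap in either of the differences that defined the rises. In all 85 genes each creA deletion library stood above all 12 other libraries, and in all 85 each M12 cellulose library stood above each M12 glucose library. Over all tested genes, 22.0% had the 3 creA deletion libraries above the 3 M12 cellulose libraries. The shares above all 12 other libraries, and for M12 on cellulose above M12 on glucose, were not computed over all tested genes. Both contrasts were used to choose the genes, so nothing is read from either difference.

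A pair of genes carried much of the group's RNA. PDE_03044 and PDE_07936 together held 36.6% of the set's fragments in the creA deletion. PDE_03044 had 7045, 8300 and 7618 FPKM in the creA deletion libraries, 2331, 2267 and 2040 in gClrBID and 1662, 1749 and 1858 in M12 on cellulose. On glucose it had 14.9, 17.3 and 13.9 FPKM in gClrBID and 26.9, 25.6 and 29.9 in M12. The creA deletion libraries were each more than any other library, the cellulose libraries of gClrBID were all above those of M12, and on glucose the order was turned round, with gClrBID below M12. Its creA deletion mean was 4.36 times that of M12 on cellulose.

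PDE_07936 had 5636, 6059 and 5877 FPKM in the creA deletion, 2446, 1507 and 1453 in gClrBID and 1109, 1186 and 1498 in M12 on cellulose. Here 1 gClrBID library stood apart at the top of its group, and the other two lay to either side of the highest M12 library, so these groups overlapped. On glucose it had 7.10, 7.55 and 7.15 FPKM in gClrBID and 8.66, 10.9 and 8.78 in M12. Without these 2 genes the set still held 1.89 ± 0.0354% of the fragments in the creA deletion and 0.380 ± 0.0210% in M12 on cellulose (SD, n = 3 each).

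One more gene passed a mean of 1000 FPKM. PDE_04260, with a coding length of 309 bases, had 1071, 1098 and 1104 FPKM in the creA deletion, 322, 368 and 356 in gClrBID and 326, 335 and 316 in M12 on cellulose. Its 3 creA deletion libraries lay close together and far above both other strains, which overlapped. At the other end, 6 genes averaged under 10 FPKM in the creA deletion, the lowest being PDE_02888 at 7.09, 7.02 and 4.35 FPKM in the creA deletion and 2.76, 2.23 and 2.36 in M12 on cellulose. That gene has a coding length of 213 bases, and 1 of its values in the creA deletion rests on 17 fragments, the fewest of any of the 85 in that strain.

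**Figure D2:**
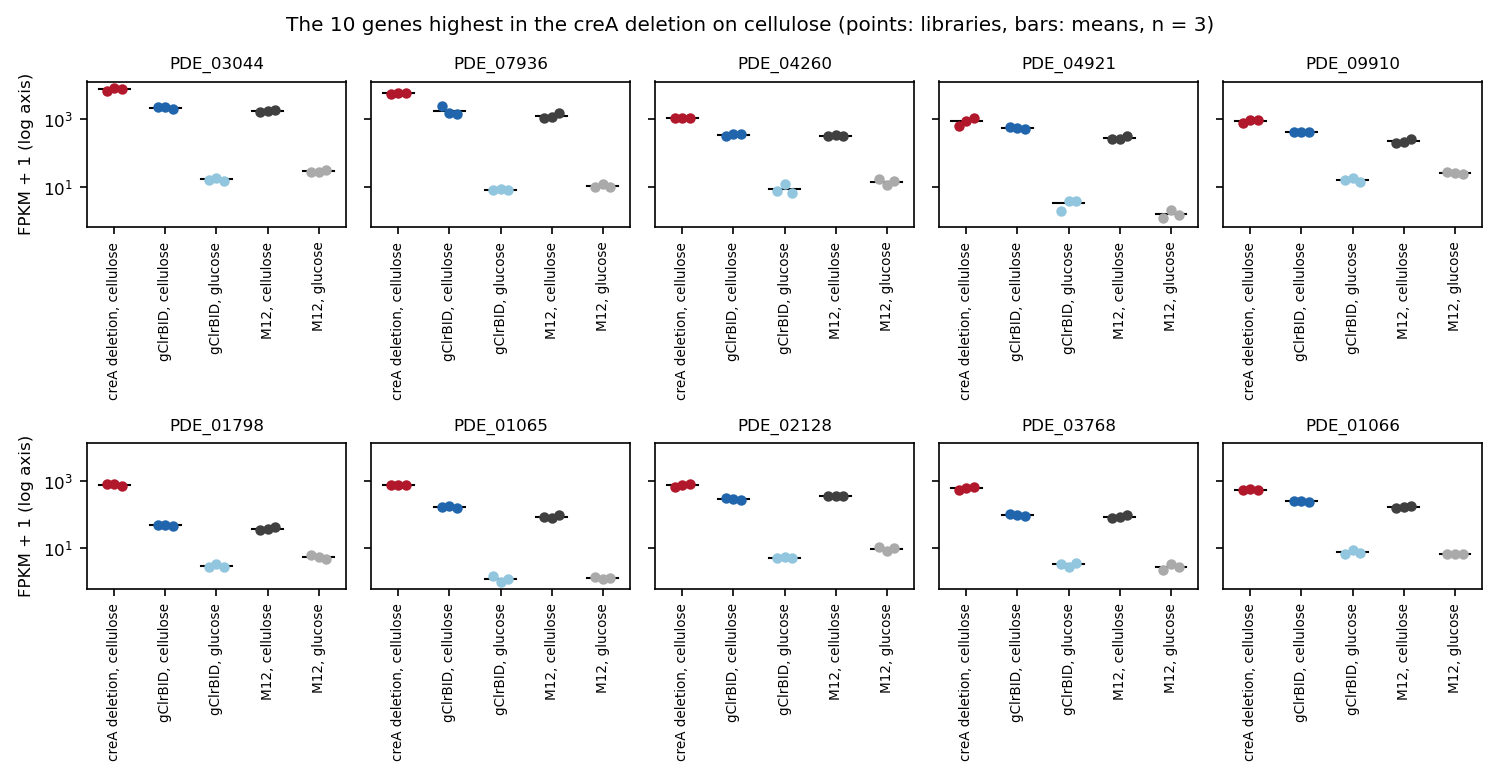
The 10 genes with the highest mean in the creA deletion on cellulose. Points are the libraries and black bars the means of 3, as FPKM + 1 on a log axis; in all 10 the creA deletion stands above the other cellulose groups, and the glucose groups are lowest.

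The difference between the creA deletion and M12 on cellulose had a median of 2.00 over the 85 genes, with quartiles of 1.47 and 3.13 and a highest value of 6.17. Over all tested genes the median was -0.28, with 5997 of the 8765 lower in the deletion. After scaling by the median of ratios that median was 0.00, so relative to the middle gene the differences of the set are larger by about the same amount. The difference reached 2 in 42 genes, 3 in 23 and 4 in 11. Over all tested genes 1.40% reached 3, and this share too was set by the choice.

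The largest of these differences belonged to genes that were low in M12 on both carbon sources. PDE_09598 had 601, 521 and 415 FPKM in the creA deletion, 12.3, 12.6 and 11.6 in gClrBID and 5.598, 6.36 and 6.22 in M12 on cellulose. On glucose it had 1.30, 0.538 and 0.4997 FPKM in gClrBID and 1.43, 0.912 and 2.01 in M12. Its difference of 6.17 was the largest of the set, with a creA deletion mean 84.5 times that of M12, while gClrBID on cellulose stood above M12 by 0.90. Its cellulose response in M12 was 1.55.

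PDE_01429 came next at 5.73. It had 150, 186 and 194 FPKM in the creA deletion, 4.58, 3.64 and 3.07 in gClrBID and 1.88, 2.04 and 3.21 in M12 on cellulose, and on glucose 0 or 1 fragment per gClrBID library and 0 to 3 per M12 library. The creA deletion mean was 74.3 times that of M12 on cellulose, while the lowest gClrBID library lay below the highest M12 library. PDE_01430, the next tag, had 0 fragments in all 6 glucose libraries and had 99.9, 137 and 134 FPKM in the creA deletion, against 2.98, 2.63 and 3.73 in M12 on cellulose, a difference of 4.92.

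The other genes with a difference of at least 4 were PDE_03152 (4.90), PDE_06389 (4.60), PDE_01070 (4.56), PDE_08972 (4.44), PDE_07432 (4.40), PDE_01798 (4.36), PDE_04474 (4.16) and PDE_01074 (4.11). Of these PDE_01798 was the highest, at 787, 791 and 716 FPKM in the creA deletion and 33.3, 35.0 and 40.9 in M12 on cellulose. PDE_03152 had the widest spread of them, at 477, 347 and 233 FPKM in the creA deletion, against 10.2, 9.78 and 11.1 in M12 on cellulose. Even the lowest creA deletion library of PDE_03152 stood far above M12. PDE_07432 had 96.6, 76.7 and 65.7 FPKM in the creA deletion, 1.13, 0.874 and 0.856 in gClrBID and 2.54, 2.55 and 3.31 in M12 on cellulose. PDE_08972 had 85.2, 73.7 and 62.2 FPKM in the creA deletion, 4.50, 6.06 and 6.01 in gClrBID and 2.79, 2.37 and 2.13 in M12 on cellulose. The gClrBID libraries thus lay below M12 in PDE_07432 and above it in PDE_08972, while the creA deletion mean was 28.5 and 30.4 times that of M12. The highest creA deletion library was at least 2 times the lowest in 3 of the 85 genes.

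The difference between cellulose and glucose in M12 had a median of 2.22, with quartiles of 1.65 and 3.60. It reached 3 in 30 genes and 5 in 10. PDE_04921 led at 7.52, with 262, 256 and 324 FPKM on cellulose and 0.211, 0.985 and 0.490 on glucose in M12. Its creA deletion libraries, at 639, 909 and 1106 FPKM, and its gClrBID libraries, at 588, 538 and 522 on cellulose, both stood above M12. This gene was the nearest of all to both gClrBID limits, with differences from M12 of 0.97 on cellulose and 0.99 on glucose.

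After PDE_04921 came PDE_07936 (6.92), PDE_07353 (6.41), PDE_01065 (6.06) and PDE_03044 (5.95). PDE_07353 had 123, 119 and 129 FPKM on cellulose and 0.629, 0.392 and 0.397 on glucose in M12, and its creA deletion libraries had 239, 298 and 333 FPKM, a difference from M12 of 1.21. The creA differences of PDE_04921, PDE_07936, PDE_01065 and PDE_03044 were 1.63, 2.22, 3.09 and 2.12, where the highest of the set was 6.17. The creA difference exceeded the carbon difference in 39 genes and was the smaller in 46. Both differences contain the M12 cellulose libraries, with opposite signs, so no relation between them was computed. Summed, from M12 on glucose to the creA deletion on cellulose, the differences ran from 2.21 to 9.15 with a median of 5.22.

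**Figure D3:**
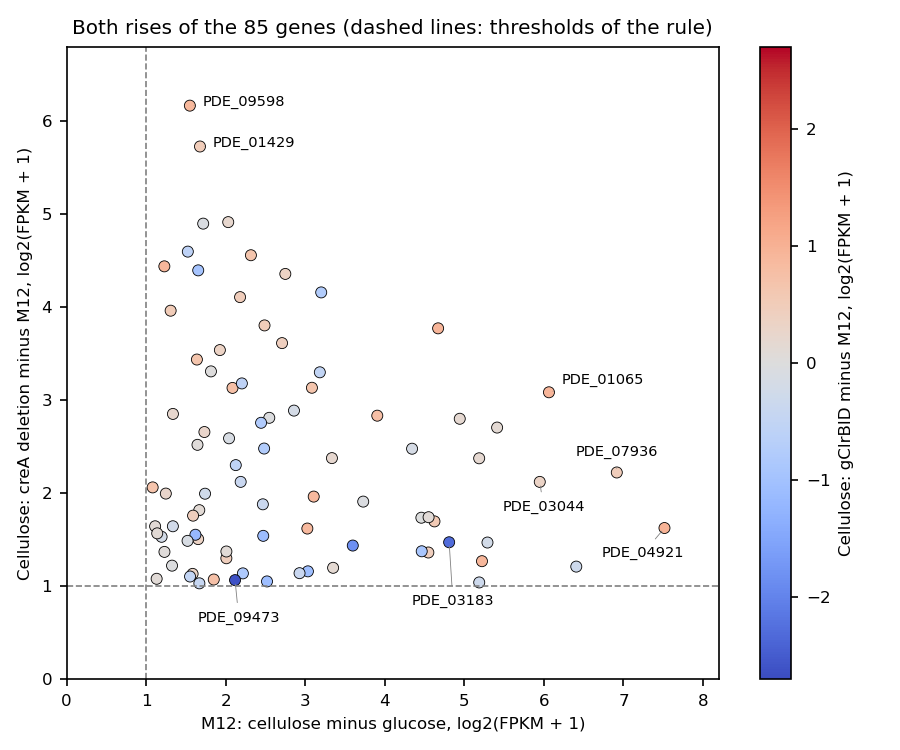
Difference between cellulose and glucose in M12 (horizontal) and between the creA deletion and M12 on cellulose (vertical), both in log2(FPKM + 1), for the 85 genes; colour gives gClrBID minus M12 on cellulose. PDE_09598 and PDE_01429 lie at the top with small carbon differences, PDE_04921 and PDE_07936 lie far to the right, and PDE_09473 and PDE_03183 are the deepest blue.

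The thresholds cut through a continuous range. Just inside the limit for the creA deletion were PDE_02888 at 1.03, PDE_02128 at 1.04 and PDE_04111 at 1.05. Just outside were PDE_00398, whose difference of 0.9993 came from means of 69.4 FPKM in the creA deletion and 34.2 in M12, PDE_07416 at 0.984 and PDE_06635 at 0.978. PDE_02128 was nevertheless among the 10 highest genes of the set, with 670, 739 and 769 FPKM in the creA deletion and 361, 346 and 349 in M12 on cellulose.

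As a description, the genes were chosen again without the 5 libraries of 1 replicate number and the 4 criteria were then read in those 5. The thresholds and the tags set aside had been fixed with earlier results of all libraries known. The left-out libraries are also replicates of the same groups, so the counts are no independent evidence for the set. Without replicate 1, 79 genes were chosen, 78 of them among the 85, and 63 of the 79 (79.7%) met all 4 criteria in the libraries left out. Without replicate 2, 92 were chosen, 80 of them among the 85, and 70 (76.1%) met all 4. Without replicate 3, 87 were chosen, 78 of them among the 85, and 66 (75.9%) met all 4. Of all tested genes 1.09% to 1.35% did. The creA difference was above 0 in the libraries left out for all 79, 92 and 87 genes, and reached 1 for 75, 86 and 77, against 5.31% to 5.63% of all tested genes. The M12 difference between cellulose and glucose reached 1 for 78, 87 and 85, against 22.5% to 23.2% of all tested genes. The limits for gClrBID on glucose were met by 93.7%, 93.5% and 90.8% of the chosen genes, against 80.3%, 79.0% and 77.8% of all tested genes. The limit for gClrBID on cellulose was met by 89.9%, 90.2% and 98.9% of the chosen genes, against 95.9%, 95.6% and 95.3% of all tested genes, so that the chosen genes met it less often in 2 of the 3 cases.

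The strain gClrBID served in the choice only through limits, and within them the genes spread. On cellulose its difference from M12 had a median of 0.10 and ran from -2.62 to 0.97. The limit cut off the upper side only, and the tag taken as clrB was itself lower in gClrBID than in M12 there. In 48 genes (56.5%) gClrBID was above M12 and in 37 below, beside 47.9% above and 52.0% below over all tested genes. The 3 gClrBID libraries stood above all 3 M12 libraries in 29 genes and below all 3 in 23, and they overlapped in 33. Over all tested genes 30.5% stood above and 34.9% below in this way.

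Of the 85 genes, 7 (8.24%) lay at least 1 below M12 in gClrBID on cellulose, beside 5.73% of all tested genes. Of the 1844 other genes that were higher by at least 1 on cellulose in M12, 18.5% did. In 30.4% of those 1844 gClrBID was above M12, and their median difference was -0.33. The upper limit was not applied to them, and the contrast with the 85 was not tested. PDE_09473 was the lowest at -2.62, with 7.12, 8.44 and 9.71 FPKM in gClrBID and 73.4, 56.0 and 44.3 in M12, while the creA deletion had 96.0, 132 and 135. The gClrBID libraries were far below M12 and those of the creA deletion all above it, so the 2 altered strains lay on opposite sides of M12. PDE_03183 lay at -2.31, with 119, 107 and 95.4 FPKM in the creA deletion, 8.11, 6.98 and 5.54 in gClrBID and 42.7, 30.3 and 41.6 in M12. PDE_03955 lay at -1.83, with 107, 100 and 123 FPKM in the creA deletion, 10.7, 11.6 and 9.20 in gClrBID and 42.5, 40.7 and 36.5 in M12. In both, the 3 strains did not overlap, and M12 stood between the other two. The remaining 4 were PDE_03182, PDE_03621, PDE_04111 and PDE_03620, from -1.20 to -1.07.

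On the upper side, 18 genes stood at least 0.5 above M12 in gClrBID on cellulose. The share of all tested genes that did so was not computed, and nothing is read from this count. The highest after PDE_04921 were PDE_01065 (0.94) and PDE_01069 (0.93). PDE_01065 had 734, 726 and 734 FPKM in the creA deletion, 163, 177 and 154 in gClrBID and 82.2, 76.6 and 98.3 in M12. Each strain had its own level there, with gClrBID above M12 and the creA deletion above both. On glucose the difference between gClrBID and M12 had a median of -0.10, against -0.26 over all tested genes, and gClrBID was below M12 in 57 of the 85 and above it in 26. Over all tested genes 72.3% were below and 27.5% above, near the shares in the set.

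The difference between cellulose and glucose within gClrBID is a description too. It equals the M12 carbon difference plus the gClrBID difference from M12 on cellulose minus that on glucose, and all of these were used in the choice. The limma counts and p-values below are therefore no independent evidence for the set. By limma with Benjamini-Hochberg adjustment over all 8765 genes, 84 of the 85 were called higher on cellulose in gClrBID at an adjusted p under 0.05, beside 49.4% of all tested genes, and nothing is read from this difference. Of the 1844 other genes that were higher by at least 1 on cellulose in M12, 1694 (91.9%) were called higher. The median difference was 2.34 over the 85 genes, 2.00 over those 1844 and 0.21 over all tested genes. Those 1844 were not held to the gClrBID limits. On glucose 203 of them stood at least 1 above M12 in gClrBID and 393 at least 1 below. Nothing is therefore read from the values of the 85 beside theirs. None of the 85 was called lower by limma, beside 34.3% of all tested genes, and none was lower at an unadjusted p under 0.05 or with voom weights on the fragments.

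PDE_07936 had the largest difference within gClrBID, at 7.73 ± 0.15 (SE, n = 3 per group), and PDE_04921 came next at 7.5003 ± 0.25. PDE_03044 was higher on cellulose by 7.08 ± 0.08 and PDE_01065 by 7.06 ± 0.12. In M12 the same 4 genes differed by 6.92, 7.52, 5.95 and 6.06, so that 3 of them had the larger value in gClrBID. Over the set, the gClrBID value was the larger in 52 genes and the M12 value in 33, and the difference between the strains was not tested. Over all tested genes the median carbon difference was 0.21 in gClrBID and -0.02 in M12. The share of all tested genes with the larger value in gClrBID was not computed, so nothing is read from this count.

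At the low end, PDE_03182 was higher by 0.42 ± 0.14 (SE, n = 3 per group, limma adjusted p = 0.013), a value that depends on the pseudocount, on 2 to 10 fragments per gClrBID library on cellulose and none in the 3 on glucose. That call was lost without gClrBID cellulose replicate 3 (limma adjusted p = 0.071). PDE_07432 was higher by 0.84 ± 0.15 and PDE_02888 by 1.20 ± 0.24. PDE_09473 was the gene not called, at -0.68 ± 0.49 (limma adjusted p = 0.21). It had 7.12, 8.44 and 9.71 FPKM on cellulose and 4.41, 45.6 and 12.3 on glucose in gClrBID, so the cellulose libraries lay inside the range of the glucose libraries, and replicate 2 on glucose stood apart. Without that replicate its difference was 0.14 and still not called (limma adjusted p = 0.65), and without gClrBID glucose replicate 1 it was -1.41 and called lower (limma adjusted p = 0.0021).

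**Figure D4:**
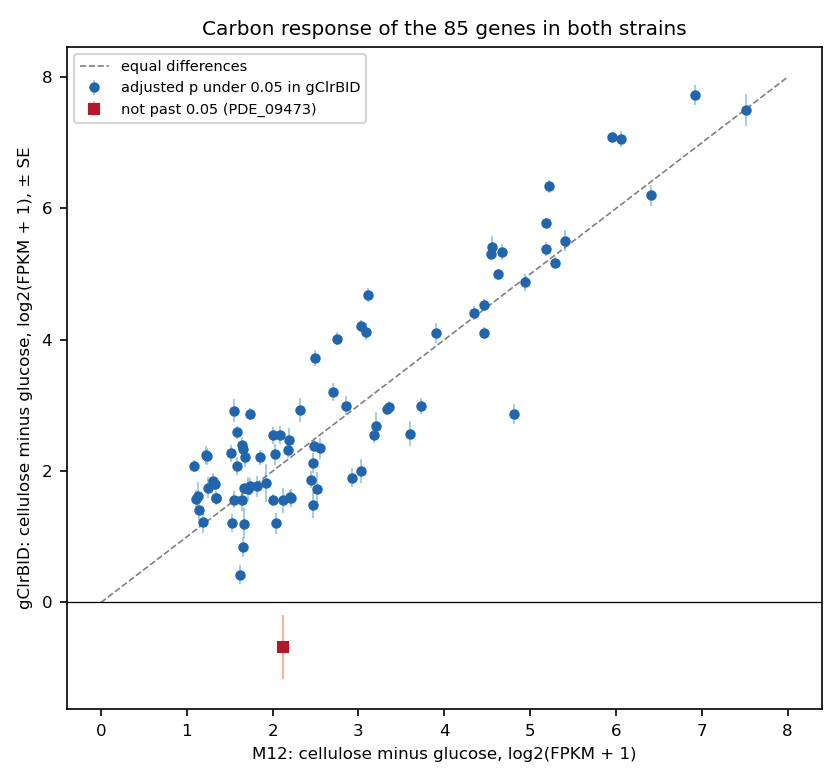
Difference between cellulose and glucose in gClrBID (vertical, with SE, n = 3 per group) against that in M12 (horizontal), in log2(FPKM + 1), for the 85 genes; the dashed line marks equal differences. PDE_09473, the red square at -0.68, is the one gene below 0, and 52 genes lie above the line. The share of all tested genes above the line was not computed.

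By their tags, which the choice used only to set some genes aside, most of the genes stood alone and a smaller number lay in runs. Tags were read here as numbered along the genome, which the deposited table does not state. Of the 85 genes 29 (34.1%) had another of the set within 3 tag numbers, and they formed 8 runs of 2 to 8 genes, 4 of them with at least 4. Of the 367 tested genes within 3 tags of a member, 29 (7.90%) were members, against 0.970% of all tested genes. The other 56 stood alone. Of the 338 neighbours outside the set, 33 (9.76%) were at least 1 higher in the creA deletion than in M12 on cellulose, against 5.43% of all tested genes, and 83 (24.6%) were at least 1 higher on cellulose in M12, against 22.0%. The counts were not recomputed with the tags that the rule leaves out. Those tags held 19 genes that met all 4 criteria, most of them in 2 stretches of tags. Putting them back could raise the number of genes with a neighbour and could not lower it.

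The longest run had 8 of the 10 tags between PDE_01065 and PDE_01074. Its members differed between the creA deletion and M12 on cellulose by 1.70 to 4.56 and between cellulose and glucose in M12 by 1.31 to 6.06. By mean level in the creA deletion they were PDE_01065 (731 FPKM), PDE_01066 (538), PDE_01069 (427), PDE_01068 (357), PDE_01073 (192), PDE_01074 (142), PDE_01070 (125) and PDE_01071 (39.7). The same genes averaged 85.7, 165, 30.7, 49.7, 36.1, 7.26, 4.41 and 1.61 FPKM in M12 on cellulose. All 8 stood above M12 in gClrBID on cellulose too, by 0.17 to 0.94. PDE_01071 has a coding length of 7143 bases and the others of 882 to 1617, so its low FPKM came from 4131 to 4945 fragments per creA deletion library.

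The run did not end with the members. Of the 13 tags from PDE_01064 to PDE_01076, 12 were tested and all 12 were at least 1 higher in the creA deletion than in M12 on cellulose. PDE_01064 missed the set by its gClrBID difference on cellulose of 1.02. PDE_01067, PDE_01075 and PDE_01076 missed it by their M12 carbon differences of 0.73, 0.66 and 0.64. PDE_01076 averaged 279 FPKM in the creA deletion and 0.585 in M12 on cellulose, and PDE_01075 averaged 117 and 0.586, so the creA difference at this end was larger than in any member of the set. PDE_01072 was not tested, as it was at 0 in all libraries but 1.

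PDE_02138 to PDE_02142 formed a run of 5 tags without a gap, and its ends were sharp. In M12 its members differed by 1.59 to 5.41 between cellulose and glucose, and between the creA deletion and M12 by 1.36 to 2.71. PDE_02140 was the highest, at 359, 419 and 455 FPKM in the creA deletion, 66.4, 71.1 and 65.7 in gClrBID and 63.4, 56.8 and 65.7 in M12 on cellulose. The gClrBID and M12 libraries of this gene lay side by side. PDE_02141, with the longest coding length of the set at 7401 bases, had 75.2, 77.2 and 76.6 FPKM in the creA deletion, 40.7, 43.7 and 37.0 in gClrBID and 27.4, 29.4 and 30.6 in M12 on cellulose. The flanking tags did not share the pattern, with creA differences of 0.39 for PDE_02137 and -1.42 for PDE_02144, and PDE_02143 was near 0 in all groups.

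In the run PDE_01429 to PDE_01433, 4 of 5 tags were members, with creA differences of 5.73, 4.92, 1.88 and 3.61 for PDE_01429, PDE_01430, PDE_01432 and PDE_01433. The tag between them, PDE_01431, had the largest carbon difference of the run in M12, at 3.52, and a creA difference of 0.71. PDE_01428 and PDE_01434 on either side had creA differences of -0.63 and -0.39.

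The run PDE_03620 to PDE_03623 behaved differently in gClrBID. All 4 members were at least 1.16 higher in the creA deletion than in M12 on cellulose, and all 4 were lower in gClrBID than in M12, by differences of -1.11 to -0.39. PDE_03618 and PDE_03619 beside them were higher on cellulose in M12 by 2.57 and 1.27 but lower in the creA deletion by differences of -1.10 and -1.45. The pairs PDE_03182 and PDE_03183, and PDE_04111 and PDE_04112, were also lower in gClrBID than in M12 on cellulose, while PDE_06167 and PDE_06168, and PDE_09910 and PDE_09911, were higher. In 6 of the 8 runs all members lay on the same side of M12 in gClrBID on cellulose, and in 2 they lay on both. The pairs hold only 2 genes each, and the share for neighbouring tested genes was not computed. Nothing is therefore read from this count.

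**Figure D5:**
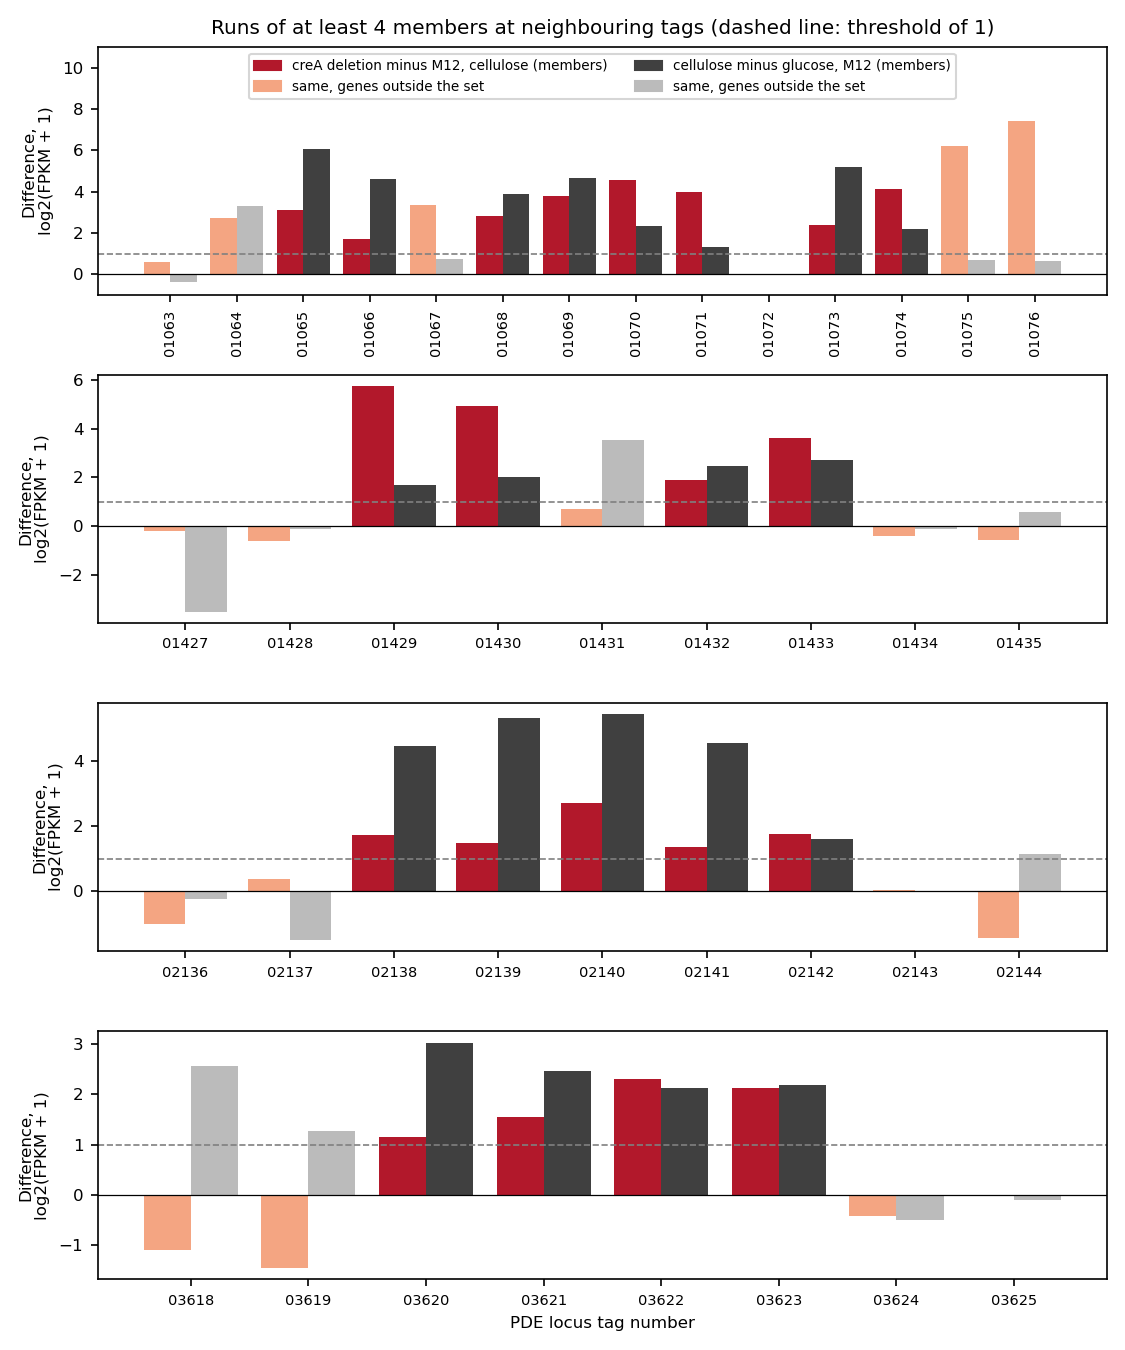
Differences in log2(FPKM + 1) along the locus tags of the 4 runs with at least 4 members, with 2 tags on each side; red bars give the creA deletion minus M12 on cellulose, dark bars cellulose minus glucose in M12, and pale bars the same for genes outside the set. In the upper panel the red and pale red bars pass the dashed threshold of 1 from PDE_01064 to PDE_01076 except at PDE_01072, and in the third panel the members are bounded on both sides by genes below it.

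The median coding length was 1266 bases, with quartiles of 882 and 1650, against 1236 for the other 1844 genes higher on cellulose in M12 and 1212 over all tested genes. The spread between replicates was wider than usual in every group. The median SD of log2 values within the creA deletion was 0.146 over the 85 genes and 0.0954 over all tested genes, and within M12 on cellulose 0.115 and 0.0738. In M12 on cellulose, 31, 24 and 61 of the 85 lay above the mean of the group in replicates 1, 2 and 3, beside 51.3%, 49.9% and 48.4% of all tested genes. In gClrBID on cellulose 58, 54 and 30 lay above it in replicates 1, 2 and 3, beside 47.9%, 48.4% and 53.8% of all tested genes. In the creA deletion the numbers were 44, 54 and 45, beside 60.7%, 42.6% and 46.9%. These within-group shifts were small beside the differences between groups, with medians of at most 0.08 on the log2 scale.

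The 46 genes outside the rule for naming had means of 7.56 to 422 FPKM in the creA deletion. Their creA differences ran from 1.07 to 3.80 and their carbon differences from 1.08 to 5.22 in M12. Within gClrBID all 46 were called higher on cellulose by limma, by 1.21 to 6.34, beside 49.4% of all tested genes. The choice used the parts of this difference, so nothing is read from the count.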

How the data were processed

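RNA was measured in 15 stranded mRNA libraries. The authors deposited 1 table of FPKM values per gene and library, whose columns carry the sample titles. The submitters' processing notes list, without roles, featureCounts 1.5.0-p1, HISAT2 2.0.0, DESeq2 and CASAVA 1.8. Build, annotation and strand setting are not given in the sources used here, so fragments shared by similar or overlapping genes could not be assessed. Within 5e-05 FPKM, the values of all 9789 genes above 0 were whole multiples of 1 fragment, which gave the fragments per library. With the total set to the summed fragments, gene lengths were multiples of 3 and were read as coding length.

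Differences are between means of log2(FPKM + 1) and understate those of genes near 0. The test was limma 3.58.1 in R 4.3.3 with an intensity trend, 1 mean per group and all 15 libraries. It was run on simulated data with a fixed spread and with changes set only in well covered genes. That run does not cover calls that rest on few fragments or on replicates that lie far apart. The planned lists by product name had no members, as no tag has one. The members and the rules were chosen with earlier results of these data known. Genes were named by rank in level, in the creA difference, in the M12 carbon difference and in the gClrBID difference on cellulose. Others were named by the 3 longest runs (the earlier of 2 with 4 genes) and by closeness to the creA threshold. PDE_03620, PDE_04112, PDE_06167, PDE_06168, PDE_09911 and genes outside the set were named after their values were seen. No other columns were in the table. Alternatives tried were the pseudocount, the scaling, the filter, the thresholds, voom weights, a replicate block, the gClrBID libraries alone and leaving out each library.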

Additional observations from a re-analysis of the deposited data

How the results depend on the processing

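The rule gave 85 genes, and 100 after median-of-ratios scaling (83 of the 85 among them), 91 with a pseudocount of 0.1 (68 of the 85), 85 after rescaling to TPM (81 of the 85), 84 with a minimum of 5 FPKM and 106 with thresholds of 0.8. It gave 52 with thresholds of 1.5, all among the 85, and 82 to 91 when 1 library was left out. The median creA difference of 2.00 became 2.13 with a pseudocount of 0.1, 2.30 after median-of-ratios scaling and 1.94 as TPM, and ran from 1.94 to 2.07 when 1 library was left out. The share of 2.98% in the creA deletion became 2.73% of summed TPM and ran from 2.94% to 3.03% when 1 library was left out. The pseudocount and a scaling by 1 factor per library cannot move the share of fragments, whereas TPM also divides by gene length. The 84 genes called higher within gClrBID were 83 with voom weights or a minimum of 5 FPKM, where 1 fewer gene of the set was tested, and 83 or 84 when 1 library was left out. The count called lower was 0, and 0 or 1 when 1 library was left out, the 1 being PDE_09473 without gClrBID glucose replicate 1 (-1.41). Its value turned to 0.14 without gClrBID glucose replicate 2. The causes were not tested. With a replicate block 84 were called higher and 0 lower. Libraries of the same number did not deviate together (correlations of -0.0968 to 0.0879 over 30 pairs, and 5 of 15 libraries closest to their own number). No pairing by number was thus seen, but these values cannot show whether libraries of the same number were grown or prepared together. Genes near 0 on glucose are limited by depth, with 11 of the 85 at 3 fragments or fewer in every M12 glucose library.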
